A study of Mus musculus with 26 samples.

Results

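The 8 genes described here encode proteins that bile duct cells use to move ions and water: Sctr, Cftr, Slc4a2, Gabrp, Kcnn4, Car2, Aqp1 and Slc5a1. They were chosen by name, and every non-control probe that carries one of these gene names was taken, which gave 10 of 41174 probes and 8 of 26647 genes tested. All 8 genes passed the filter on dim probes. The study traced liver cells with a history of Foxl1-driven Cre, a recombinase that turns on the yellow fluorescent protein YFP from the Rosa locus, in mice fed a diet with DDC, a toxin that injures the bile ducts. All groups were Foxl1-Cre; RosaYFP mice, the offspring being 6 to 10 weeks old. YFP-positive cells were sorted after 3, 7 and 14 days of DDC (4, 3 and 2 arrays), and YFP-negative cells at the same days (3 arrays each). Both fractions were sorted from the non-parenchymal cells, those that remain when hepatocytes are removed, after cells with the leukocyte protein CD45 had been gated out. The day 0 group (2 arrays) was the total of non-parenchymal cells from mice on chow, so that diet and sorting cannot be told apart in any comparison with it. The YFP label marks past activity of Cre under Foxl1 control and not present expression of Foxl1.

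Bile leaves the hepatocytes and is diluted and made alkaline by the cells that line the bile ducts, the cholangiocytes. In the textbook scheme the hormone secretin binds its receptor on the basolateral membrane and raises cyclic AMP, which opens the chloride channel CFTR on the side of the duct lumen. Chloride then returns through the anion exchanger AE2 (Slc4a2) in exchange for bicarbonate, which carbonic anhydrase 2 (Car2) supplies, while potassium channels such as KCa3.1 (Kcnn4) keep the membrane voltage that drives anions out, and water follows through aquaporin 1 (Aqp1). The sodium-glucose cotransporter SGLT1 (Slc5a1) takes glucose back from bile. Gabrp encodes the pi subunit of the GABA type A receptor, a chloride channel gated by the transmitter GABA and found in several epithelia outside the brain.

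Of the 10 probes, 7 have a forward frame free of stop codons. Shown are 2 of these 7, 1 for Cftr and 1 for Sctr, because these genes stand at the entry of the pathway, and in each 1 of the 3 frames is open. The Cftr probe shown is the further one of that gene, not the one whose values are given below, and it lies at chr6:18217739-18217798 on the plus strand of mm9, and the Sctr probe spans chr1:121950915-121952017 on the plus strand, a stretch of 1103 bases for 60 letters, so that it joins separate blocks of the genome.
Cftr: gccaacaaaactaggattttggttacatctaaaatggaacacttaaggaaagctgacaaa
Sctr: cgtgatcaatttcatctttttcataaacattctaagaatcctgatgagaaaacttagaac
The main Cftr probe, which is printed on 10 spots of each array, lies further along the gene at chr6:18272483-18272542. The probes of the other genes lie at chr5:23946522-23946581 (Slc4a2), chr11:33452049-33452108 (Gabrp, minus strand), chr7:25169184-25169782 (Kcnn4), chr3:14900206-14900265 (Car2), chr6:55298480-55298539 (Aqp1) and chr5:33504561-33504620 (Slc5a1). A further Slc5a1 probe lies at chr5:33504352-33504411. Exon annotation of mm9 was not used here.

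Promoters are shown for Cftr and Gabrp, the 2 genes that passed the test between the fractions. RefSeq sequences of GRCm38.p6, running from 250 bases before to 50 bases after a start, were matched for 6 of the 8 genes. The Cftr promoter is chr6:18170437-18170736 on the plus strand, and the Gabrp promoter is chr11:33578908-33579207 on the minus strand. Capitals mark matches on either strand to 5 motifs: the TATA box TATAAA, the CCAAT box CCAAT, the GC box GGGCGG, the cyclic AMP response element TGACNTCA with any middle base, and the HNF1 half-site GTTAAT.
Cftr: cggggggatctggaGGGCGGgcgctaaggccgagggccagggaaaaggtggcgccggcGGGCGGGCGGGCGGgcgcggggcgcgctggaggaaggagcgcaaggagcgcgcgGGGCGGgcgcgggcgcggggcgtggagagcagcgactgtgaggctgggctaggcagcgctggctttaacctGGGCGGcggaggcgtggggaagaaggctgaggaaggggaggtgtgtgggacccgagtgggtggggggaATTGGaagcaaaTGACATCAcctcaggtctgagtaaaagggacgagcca
Gabrp: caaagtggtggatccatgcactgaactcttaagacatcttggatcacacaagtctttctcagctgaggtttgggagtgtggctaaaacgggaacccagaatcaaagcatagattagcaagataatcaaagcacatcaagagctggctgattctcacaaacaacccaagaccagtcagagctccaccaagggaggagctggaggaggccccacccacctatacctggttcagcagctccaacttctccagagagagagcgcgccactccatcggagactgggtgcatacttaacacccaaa
The Cftr promoter held 6 GC boxes, 1 CCAAT box read on the other strand and 1 cyclic AMP response element. Of the GC boxes 3 overlap one another, and no other matches overlap. The Gabrp promoter held none of the 5 motifs. Of all 32851 promoters of this length, 35.7% held a GC box, 37.4% a CCAAT box, 8.83% a cyclic AMP response element, 13.6% a TATA box and 7.10% an HNF1 half-site. The promoters of Aqp1 and Kcnn4 held 1 GC box each, and those of Slc4a2 and Slc5a1 held none of the 5.

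Levels are log2 signals from which the 75th percentile of the same array was subtracted, so that 0 is a signal at that percentile and 1 is a doubling. A level belongs to 1 probe and is not set against that of another gene. Between 81.0 and 91.2% of the spots on an array were well above background, and the number of arrays limits the precision. Arrays are named by the replicate number of their label. The labels do not say whether replicates came from separate mice, so p-values measure the spread between these arrays. In bulk RNA, fewer cells of a type and less RNA per cell cannot be told apart.

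The traced fraction was checked against 12 cholangiocyte markers, all well above background on all 20 arrays. All 12 were higher in YFP-positive than in YFP-negative cells over the mean of the days, by 0.70 (Krt18) to 3.54 (Cldn7), and 1 of them, Cldn7, passed the test (limma, adjusted p = 0.0391), where 0.214% of all genes passed as higher. Their mean level lay between 1.68 and 3.71 on 8 of the 9 YFP-positive arrays and between -1.49 and 2.06 on the YFP-negative arrays. Array 3 of YFP-positive cells at day 3, at -0.23, stood apart from its fraction. Among the YFP-negative arrays, array 3 of day 14 had the highest mean marker level at 2.06, and array 3 of day 3 the next at 1.30. Array 4 of YFP-positive cells at day 3 had the highest mean level of cholangiocyte markers of all arrays, 3.71, and the lowest of 10 macrophage markers, -2.81, against -1.07 to 3.92 on the other YFP-positive arrays. Macrophage markers were well above background on nearly every array although CD45-negative cells were sorted (9 of 10 on all 20 arrays).

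YFP-positive cells were first set against YFP-negative cells over the mean of the 3 days, to ask which transport genes set the traced cells apart. Cftr and Gabrp rose in YFP-positive cells, 5.56-fold and 9.96-fold. The secretin receptor, the glucose cotransporter and the potassium channel had differences of 2.14 to 3.06 on the log2 scale that did not pass, and Car2, Slc4a2 and Aqp1 had differences of 1.01 or less. Thus 2 of 8 genes passed at an adjusted p under 0.05 (limma, adjusted over all genes), where 0.642% of all genes passed in either direction and 0.214% as higher. At an unadjusted p under 0.05, 5 of the 8 were higher, against 14.2% of all genes. They include Sctr, whose YFP-negative signals were mostly not well above background. The median difference of the 8 was 2.31, beside 0.06 for all genes tested, and 7 of the 8 were higher in YFP-positive cells at each of the 3 days, as 28.6% of all genes were.

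**Figure D1:**
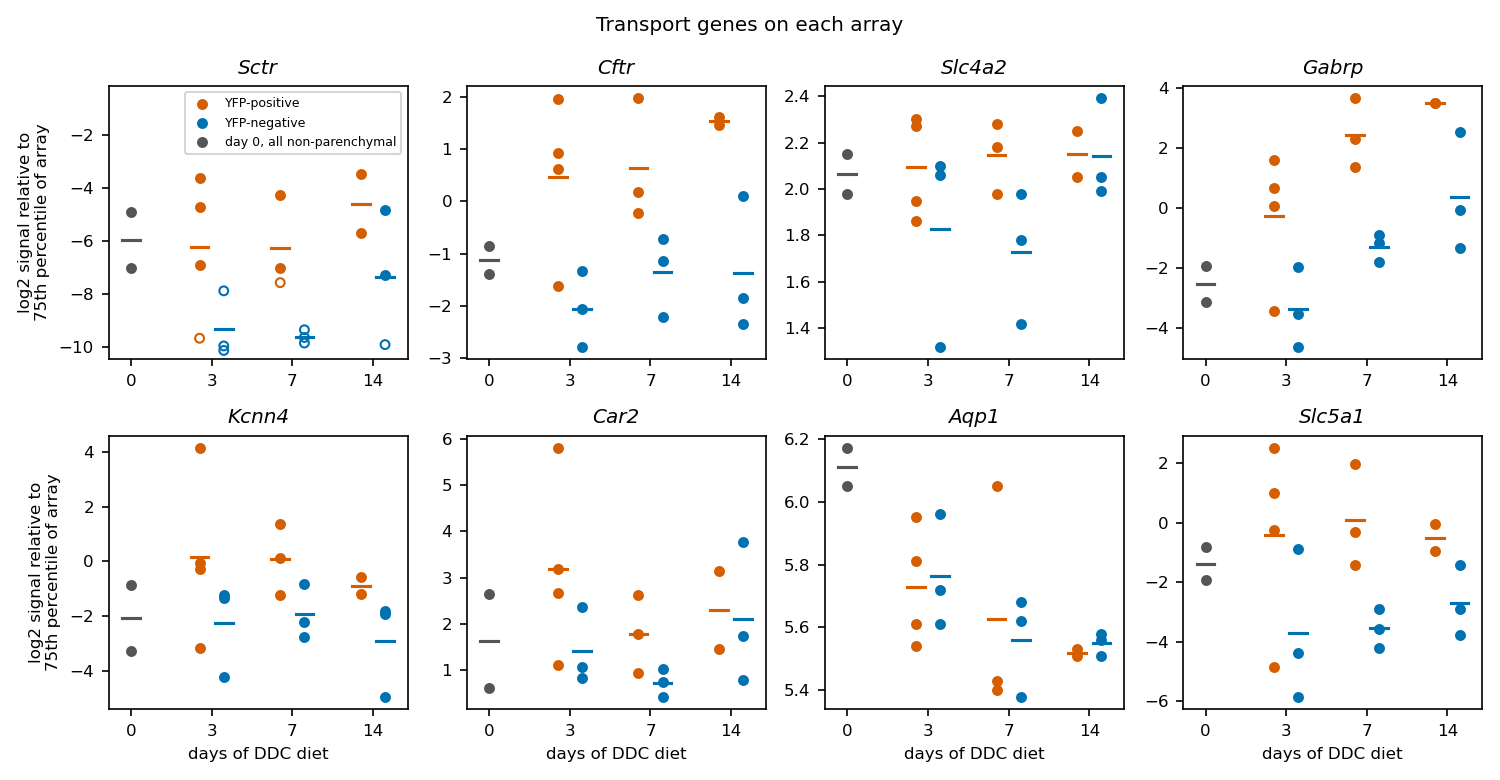
Level of each transport gene on every array (log2 signal relative to the 75th percentile of the array) against days of DDC, with YFP-positive arrays in orange left of YFP-negative arrays in blue, day 0 arrays in grey, and bars at group means. Open points, all in the Sctr panel, were not well above background. Cftr and Gabrp lie higher in the YFP-positive fraction, while the vertical range of the Aqp1 and Slc4a2 panels is about 1 log2 unit.

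Sctr encodes the secretin receptor, which starts the secretory response. In YFP-positive cells its level was -6.89, -4.72, -9.67 and -3.62 at day 3, -4.26, -7.57 and -7.0 at day 7, and -3.48 and -5.71 at day 14. In YFP-negative cells it was -9.96, -7.88 and -10.13 at day 3, -9.85, -9.64 and -9.35 at day 7, and -4.83, -9.91 and -7.28 at day 14. On the day 0 arrays it was -4.89 and -7.0. The gene was dim throughout: its probe was well above background on 11 of 20 arrays, which were 7 of the 9 YFP-positive, 2 of the 9 YFP-negative and both day 0 arrays. No YFP-negative array of day 3 or day 7 was well above background, so the difference there is given as a bound against a floor. YFP-positive cells were at least 3.44-fold higher at day 3 (measured means -6.23 in YFP-positive and -9.33 in YFP-negative cells, adjusted p = 0.600) and at least 2.77-fold higher at day 7 (measured means -6.28 in YFP-positive and -9.61 in YFP-negative cells, adjusted p = 0.882). For each bound the mean of the brighter group was divided by a floor, the lowest signal among probes well above background, averaged over the arrays of the dimmer group. Where the measured signal was above the floor it was used instead. A probe not well above background can lie above this floor, so the true fold can be smaller than the bound. The bounds hold for this background correction only and carry no error between arrays. Their brighter means include YFP-positive arrays not well above background, at -9.67 (day 3) and -7.57 (day 7). With normexp background correction the day 7 difference was 0.46 ± 0.71. Over the mean of days the fitted difference was 3.06 ± 0.87 (standard error, adjusted p = 0.0864). This fit takes the dim YFP-negative signals at face value, so neither this Sctr value nor those that follow is a measured fold or a bound. The difference was 0.57 ± 0.42 with normexp background correction (adjusted p = 0.703) and 2.24 ± 1.28 with the slide as a fixed block (adjusted p = 0.714). When arrays were left out in turn it ran from 2.63 to 3.48 and passed in 1 of 20 fits, that without array 3 of YFP-positive cells at day 3 (3.44 ± 0.75, adjusted p = 0.0239).

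Cftr encodes the chloride channel that is defective in cystic fibrosis and marks cholangiocytes within the liver. YFP-positive cells had levels of 0.62, 0.92, -1.62 and 1.96 at day 3, 1.97, 0.19 and -0.23 at day 7, and 1.46 and 1.61 at day 14. YFP-negative cells had levels of -2.78, -1.33 and -2.06 at day 3, -0.72, -2.21 and -1.14 at day 7, and -2.34, -1.85 and 0.11 at day 14. At day 0 the levels were -0.86 and -1.39. At days 7 and 14 all YFP-positive arrays were above all YFP-negative ones, and at day 3 array 3, at -1.62, was the 1 YFP-positive array within the range of the YFP-negative ones. The 10 spots of the probe differed little within an array, with a standard deviation over spots of 0.04 to 0.32, whereas the standard deviation over the 4 YFP-positive arrays of day 3 was 1.51. The difference over the mean of days was 2.48 ± 0.50 (adjusted p = 0.0366). The other Cftr probe, shown above, gave 3.58 ± 0.87 in the same direction (adjusted p = 0.0622 over 39591 probes).

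In the order of the Cftr group means the YFP-positive groups came first. They stood at 1.54 ± 0.11 at day 14 (SD, n = 2), 0.64 ± 1.17 at day 7 (n = 3) and 0.47 ± 1.51 at day 3 (n = 4). Day 0 followed at -1.12 ± 0.37 (n = 2), then YFP-negative cells between -1.36 and -2.06. No neighbours in this order were free of overlap. On the arrays at the extremes the Cftr level moved with the cholangiocyte markers. The 2 YFP-positive arrays with the highest Cftr levels, 1.97 and 1.96, had mean marker levels of 3.39 and 3.71, and the 1 with the lowest, -1.62, had -0.23. The YFP-negative array with the highest Cftr level, 0.11, had the highest marker level of its fraction, 2.06, and the 1 with the lowest, -2.78, had the lowest marker level of all arrays, -1.49. The YFP-negative array next in marker level, array 3 of day 3 at 1.30, had a Cftr level of -1.33. That was below array 4 of day 7, which had a marker level of -0.79 and a Cftr level of -1.14. The summed signal of the 12 markers, in multiples of the 75th percentile, ran from 45.3 to 387 in YFP-positive cells, from 32.0 to 118 in YFP-negative cells and from 41.6 to 81.8 at day 0. The part of the number of such cells in the Cftr difference was not tested.

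Slc4a2 encodes the exchanger AE2, which trades chloride for bicarbonate in many tissues. Its level was 1.95, 1.86, 2.27 and 2.30 at day 3, 2.18, 1.98 and 2.28 at day 7, and 2.25 and 2.05 at day 14 in YFP-positive cells. YFP-negative cells had levels of 2.10, 1.32 and 2.06 at day 3, 1.42, 1.98 and 1.78 at day 7, and 2.05, 2.39 and 1.99 at day 14. The day 0 arrays had 2.15 and 1.98. All 20 arrays lay within 1.07 log2 units, and neighbouring group means overlapped throughout. The difference over the mean of days was 0.23 ± 0.18 (95% interval -0.15 to 0.61, adjusted p = 0.467), so a difference above 1.53-fold lies outside this interval.

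Gabrp had the largest difference between the fractions of the 8 genes. Its level in YFP-positive cells was 0.68, 0.06, -3.43 and 1.61 at day 3, 3.65, 1.35 and 2.31 at day 7, and 3.50 on both arrays of day 14. Levels in YFP-negative cells were -4.63, -1.96 and -3.52 at day 3, -0.91, -1.17 and -1.80 at day 7, and -1.33, -0.07 and 2.53 at day 14. At day 0 it stood at -1.92 and -3.14. The fractions did not overlap at days 7 and 14, and in both the level was higher at day 14 than at day 3. Array 3 of YFP-negative cells at day 14, at 2.53, was more than 2 log2 units above the other arrays of its group and was also the YFP-negative array with most cholangiocyte marker signal. Over the mean of days the difference was 3.32 ± 0.68 (adjusted p = 0.0391).

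Kcnn4 encodes a potassium channel opened by calcium, present in epithelia, red cells and leukocytes. YFP-positive cells had levels of -0.05, -0.29, -3.14 and 4.12 at day 3, 1.35, 0.12 and -1.23 at day 7, and -1.19 and -0.56 at day 14. YFP-negative cells had -4.21, -1.21 and -1.33 at day 3, -2.20, -2.76 and -0.82 at day 7, and -4.92, -1.79 and -1.92 at day 14. Day 0 levels were -0.86 and -3.26. The 4 YFP-positive arrays of day 3 spread widely (SD 2.99), and the fractions overlapped at days 3 and 7. Its highest value, 4.12, was on array 4 of YFP-positive cells at day 3, the array with the lowest macrophage marker level. The difference over the mean of days was 2.14 ± 0.86 (adjusted p = 0.171), and 1.70 ± 0.68 without that array (adjusted p = 0.195).

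Car2 encodes the cytosolic carbonic anhydrase, which is abundant in red cells as well as in secretory epithelia. In YFP-positive cells its level was 3.19, 2.67, 1.12 and 5.79 at day 3, 2.63, 0.93 and 1.79 at day 7, and 3.15 and 1.45 at day 14. In YFP-negative cells it was 1.06, 2.37 and 0.83 at day 3, 1.02, 0.74 and 0.43 at day 7, and 1.73, 3.77 and 0.79 at day 14. The day 0 arrays had 2.64 and 0.62. The fractions overlapped at each day, and the difference over the mean of days was 1.01 ± 0.60 (95% interval -0.26 to 2.28, adjusted p = 0.345), or 0.72 ± 0.50 without the array at 5.79 (adjusted p = 0.447). The highest Car2 levels in YFP-negative cells and at day 0, 3.77 and 2.64, were on the arrays with the highest mean level of 9 erythroid markers, 2.62 and 1.93. The highest in YFP-positive cells, 5.79, was on an array where that mean was -2.82. Array 4 of YFP-negative cells at day 3, with a mean erythroid marker level of 0.9, had a Car2 level of 0.83. The summed signal of the erythroid markers ran from 6.65 to 179 in YFP-positive cells, from 6.60 to 293 in YFP-negative cells and from 80.8 to 292 at day 0, with 7 of the 9 well above background on every array. The array with the sum of 293, array 4 of YFP-negative cells at day 7, had the lowest Car2 level of all arrays, 0.43. The part of red cells in the Car2 levels was not tested.

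Aqp1 encodes the water channel of cholangiocytes, which is also abundant in endothelium and red cells. In YFP-positive cells its level was 5.61, 5.95, 5.81 and 5.54 at day 3, 6.05, 5.43 and 5.40 at day 7, and 5.53 and 5.51 at day 14. In YFP-negative cells it was 5.96, 5.72 and 5.61 at day 3, 5.68, 5.38 and 5.62 at day 7, and 5.51, 5.58 and 5.56 at day 14. The day 0 arrays had 6.17 and 6.05, above every sorted array, although the value nearest to them also rounds to 6.05. Aqp1 was the steadiest of the 8, with all 20 arrays within 0.79 log2 units, and the fractions overlapped at each day. The difference over the mean of days was 0.00 ± 0.16 (95% interval -0.34 to 0.34, adjusted p = 0.999), so a difference above 1.27-fold in either direction lies outside this interval. The mean level of 10 endothelial markers, all well above background on every array, ran from 0.57 to 3.77 in YFP-positive cells, from 1.49 to 3.68 in YFP-negative cells and from 3.42 to 3.75 at day 0. On the YFP-positive array with the fewest endothelial markers, at 0.57, the Aqp1 level was 5.54.

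Slc5a1 encodes the glucose cotransporter SGLT1, best known from the gut. In YFP-positive cells its level was -0.25, 0.99, -4.84 and 2.50 at day 3, 1.98, -0.31 and -1.42 at day 7, and -0.04 and -0.96 at day 14. In YFP-negative cells it was -5.85, -0.90 and -4.39 at day 3, -3.57, -2.90 and -4.20 at day 7, and -3.77, -2.89 and -1.42 at day 14. The day 0 arrays had -0.83 and -1.94. The fractions were apart at days 7 and 14 and overlapped at day 3, where array 3 of YFP-positive cells was low and array 3 of YFP-negative cells was high. The difference over the mean of days was 3.05 ± 0.91 (adjusted p = 0.0949), and 2.34 ± 0.73 with normexp (adjusted p = 0.187). When arrays were left out in turn it ran from 2.69 to 3.54 and passed in 1 of 20 fits, that without the low YFP-positive array (3.54 ± 0.69, adjusted p = 0.0154). The further Slc5a1 probe, well above background on 18 of 20 arrays, gave 4.13 ± 1.10 in the same direction (adjusted p = 0.0748 over 39591 probes).

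**Figure D2:**
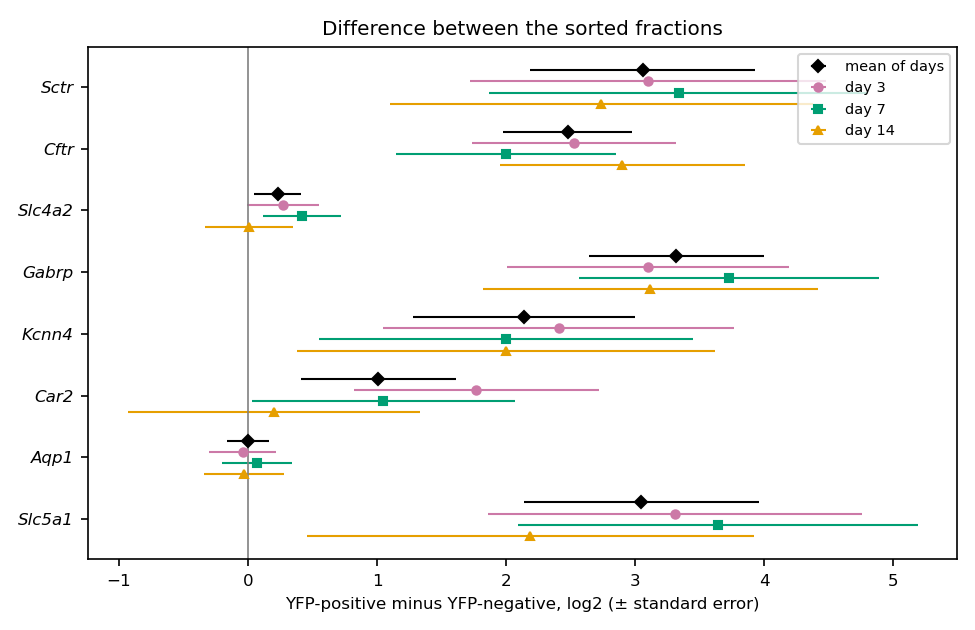
Difference between YFP-positive and YFP-negative cells (log2, positive where YFP-positive cells are higher) for each transport gene, over the mean of days (black diamonds) and at day 3, 7 and 14, with standard errors of the limma fit. Aqp1 sits at 0 and Slc4a2 near it at each time, Car2 has its largest difference at day 3, and Sctr, Cftr, Gabrp, Kcnn4 and Slc5a1 lie at about 2 or more at each time, those of Sctr at days 3 and 7 being fitted against dim YFP-negative signals.

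The 2 calls over the mean of days depended on single arrays. When arrays were left out in turn, Cftr still passed in 6 of 20 fits, those without YFP-positive day 3 array 3 or 4, YFP-positive day 7 array 3 or 4, YFP-negative day 3 array 3 or YFP-negative day 14 array 3. Gabrp passed in 4 of 20, those without array 3 of YFP-positive cells at day 3 or day 7 or of YFP-negative cells at day 3 or day 14. Without YFP-positive day 3 array 3, the array that stood apart, the differences were 2.71 ± 0.42 for Cftr and 3.67 ± 0.54 for Gabrp (adjusted p = 0.00787 and 0.00756). In the other fits, which include those without either day 0 array, the call was lost. The differences stayed between 2.25 and 2.72 for Cftr and between 3.03 and 3.68 for Gabrp, with adjusted p between 0.00787 and 0.0831 and between 0.00756 and 0.0831. Both calls were also lost with normexp background correction (adjusted p = 0.0609 and 0.0629) and with the slide as a fixed block (2.03 ± 0.72 with adjusted p = 0.547, and 3.43 ± 0.95 with adjusted p = 0.453).

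At each day the same comparison asked when the fractions differed. At day 3 none of the 8 genes passed with limma, as none of all genes did (0%), and 4 were higher at an unadjusted p under 0.05 (Cftr, Gabrp, Sctr and Slc5a1), against 4.91% of all genes. The Sctr value is fitted against YFP-negative signals that were not well above background. No gene of the 8 was free of overlap at day 3, where 3.75% of all genes were higher without overlap. The largest difference was that of Slc5a1, 3.31 ± 1.45 (1.97 ± 1.15 with normexp), and the lowest that of Aqp1, -0.04 ± 0.26 (adjusted p = 0.600 and 0.956).

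At day 7 none of the 8 passed (0% of all genes) and 4 were higher at an unadjusted p under 0.05, against 2.03%. Without overlap, 5 of the 8 were higher: Sctr, Cftr, Slc4a2, Gabrp and Slc5a1, where 4.28% of all genes were. The counts of 4 and 5 include Sctr, whose YFP-negative signals and YFP-positive signal at -7.57 were not well above background. Gabrp differed most, by 3.73 ± 1.16 (adjusted p = 0.676), with mean levels of 2.44 ± 1.16 in YFP-positive and -1.29 ± 0.46 in YFP-negative cells (SD, n = 3 each). Slc5a1 differed by 3.64 ± 1.55, Cftr by 2.0 ± 0.85 and Slc4a2 by 0.42 ± 0.30, and Aqp1, with the lowest difference, by 0.07 ± 0.27.

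At day 14 none of the 8 passed, beside 0.0225% of all genes, and 2 were higher at an unadjusted p under 0.05 (Cftr and Gabrp), against 8.08%. Cftr, Gabrp, Kcnn4 and Slc5a1 were higher without overlap, 4 of the 8, where 20.5% of all genes were, with 2 YFP-positive arrays set against 3. The differences were 3.12 ± 1.30 for Gabrp, 2.90 ± 0.95 for Cftr, 2.19 ± 1.73 for Slc5a1 and 2.0 ± 1.62 for Kcnn4 (adjusted p = 0.373, 0.342, 0.628 and 0.640). The lowest was that of Aqp1, -0.03 ± 0.31.

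Of the sorted arrays, slides 2, 3 and 5 held only YFP-positive and slide 6 only YFP-negative ones. Fraction and slide can therefore not be fully told apart. Slides that held both fractions of a day gave differences of 1 array minus 1 array. On slide 1, at day 3, they were 5.60 for Slc5a1, 5.31 for Gabrp, 4.16 for Kcnn4, 3.40 for Cftr, 2.13 for Car2, -0.15 for Slc4a2 and -0.36 for Aqp1. On slides 4 and 7, at day 7, Gabrp differed by 2.25 and 4.11, Slc5a1 by 3.26 and 2.78, Cftr by 0.91 on both, and Slc4a2 by 0.56 and 0.50. Kcnn4 (2.32 and -0.41) and Car2 (-0.10 and 1.36) differed in sign between these slides, and Aqp1 was lower in YFP-positive cells on both, by 0.24 and 0.22. Cftr, Gabrp and Slc5a1 were thus higher in YFP-positive cells on each of the 3 slides. The share of all genes higher on each of them was not counted. No slide held both fractions at day 14. Sctr has no slide difference here, because its YFP-negative arrays on these slides were not well above background.

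Against day 0, the comparisons of sorted cells asked how the levels stood relative to total non-parenchymal cells of mice on chow. None of the 8 genes passed with limma in any of the 6 comparisons. Of all genes 0.0525, 0.0338 and 0.143% passed for YFP-positive cells at days 3, 7 and 14, and 0.045, 0.0488 and 0.0338% for YFP-negative cells. These comparisons share their 2 day 0 arrays. Gabrp had the largest difference in YFP-positive cells at each day, 2.26 ± 1.23 at day 3 (4.79-fold), 4.96 ± 1.30 at day 7 (31.2-fold) and 6.03 ± 1.42 at day 14 (65.1-fold), with adjusted p = 0.542, 0.177 and 0.120. The difference in YFP-negative cells was -0.84 ± 1.30 at day 3, 1.24 ± 1.30 at day 7 and 2.90 ± 1.30 at day 14 (7.49-fold, adjusted p = 0.412). The Gabrp level was higher without overlap in both fractions at days 7 and 14. In YFP-negative cells 9.96 and 12.1% of all genes were higher without overlap at these days. The Gabrp differences were smaller with a fixed slide block, 0.96 ± 1.17, 3.39 ± 1.55 and 4.40 ± 1.39 in YFP-positive cells at days 3, 7 and 14, and -0.33 ± 1.68 and 1.34 ± 1.68 in YFP-negative cells at days 7 and 14. Without array 3 of YFP-positive cells at day 3 the Gabrp difference for YFP-positive cells at day 14 passed (adjusted p = 0.0444), and with array weights that at day 7 did (adjusted p = 0.0371).

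Cftr was higher than at day 0 without overlap in YFP-positive cells at day 7 (1.77 ± 0.95, adjusted p = 0.491) and day 14 (2.66 ± 1.04, adjusted p = 0.346), and with the slide as a fixed block these differences were 0.70 ± 1.17 and 1.48 ± 1.05. With Gabrp these made 2 of 8 genes higher without overlap at each of these days, where 11.2 and 17.7% of all genes were. At an unadjusted p under 0.05, none of the 8 was higher at day 3, Gabrp was at day 7 and Cftr and Gabrp were at day 14, against 3.38, 3.63 and 3.90% of all genes. In YFP-negative cells Sctr was lower than at day 0 without overlap at day 3 and day 7. With no YFP-negative array well above background there, the bounds are again set against the floor, with the same limits. By them it was at least 4.18-fold lower at day 3 (measured means -9.33 in YFP-negative cells and -5.94 at day 0, adjusted p = 0.747) and at least 3.49-fold lower at day 7 (-9.61 in YFP-negative cells and -5.94 at day 0, adjusted p = 0.565). With normexp the Sctr difference turned to 0.51 ± 0.80 at day 3 and was -0.71 ± 0.80 at day 7. The median of all genes in these comparisons was 0.24 and -0.24 with normexp, against -0.41 and -0.36 as reported. At day 14 Sctr again had the lowest difference of the 8, -1.39 ± 1.64, which was 0.03 ± 1.57 with quantile normalization. The highest at day 3 was that of Kcnn4, -0.19 ± 1.62. Slc5a1 was lower without overlap in YFP-negative cells at day 7 (-2.17 ± 1.73, adjusted p = 0.669, and -4.84 ± 2.03 with the slide as a fixed block). At an unadjusted p under 0.05, none of the 8 differed in YFP-negative cells at day 3, Sctr was lower at day 7 and Gabrp higher at day 14, where 6.49, 8.65 and 11.8% of all genes differed in either direction.

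Aqp1 was lower than at day 0 without overlap in all 6 sorted groups. The differences were -0.39 ± 0.29, -0.49 ± 0.31 and -0.59 ± 0.33 in YFP-positive cells at days 3, 7 and 14, and -0.35 ± 0.31, -0.55 ± 0.31 and -0.56 ± 0.31 in YFP-negative cells, with adjusted p from 0.465 to 0.766. Low differences were common on these arrays. The median over all genes lay between -0.42 and -0.20 in the 6 comparisons, and 13.6, 25.7 and 29.1% of all genes were lower without overlap in YFP-positive cells at days 3, 7 and 14, and 25.9, 23.1 and 31.0% in YFP-negative cells.

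Between day 14 and day 3, Gabrp was the 1 gene of the 8 that was higher without overlap, and it was so in both fractions, where 5.25% (YFP-positive) and 6.28% (YFP-negative) of all genes were. In YFP-positive cells its mean was 3.50 at day 14 (n = 2) and -0.27 ± 2.20 at day 3 (SD, n = 4), a difference of 3.76 ± 1.23 (13.6-fold, unadjusted p = 0.00781, adjusted p = 0.539). In YFP-negative cells the means were 0.38 ± 1.97 at day 14 and -3.37 ± 1.34 at day 3 (SD, n = 3 each), a difference of 3.74 ± 1.16 (13.4-fold, unadjusted p = 0.00552, adjusted p = 0.999). The difference between these day effects was 0.02 ± 1.69, with a 95% interval of -3.58 to 3.62. Within slides the Gabrp difference was 2.82 and 3.43 in YFP-positive cells (slides 1 and 2) and 1.89 and 6.05 in YFP-negative cells (slides 6 and 7).

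None of the 8 genes passed between these days in either fraction with limma (0.0263% of all genes in YFP-positive cells, 0% in YFP-negative cells), and Gabrp was the only 1 at an unadjusted p under 0.05, where 3.05 and 1.55% of all genes were higher. The cholangiocyte markers stood higher at day 14 too, 12 of 12 in YFP-positive cells with a median difference of 0.81 and 9 of 12 in YFP-negative cells with a median of 0.60, none of them passing. Aqp1 was lower at day 14 without overlap in both fractions, by small amounts (-0.21 ± 0.29 and -0.22 ± 0.27). There 5.57 and 5.88% of all genes were lower without overlap. The lowest difference was that of Kcnn4 in both fractions (-1.04 ± 1.54 and -0.63 ± 1.45). None passed in the test of the difference between the fractions' day effects (0% of all genes, lowest adjusted p = 1, none at an unadjusted p under 0.05, where 2.85% of all genes were), and the 8 ran from -1.57 ± 1.48 (Car2) to 0.37 ± 1.24 (Cftr).

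The authors' deposited table gives signed fold changes against day 0 and a false discovery rate for the same probes, with no stated method and no replicate error. For Gabrp the authors' deposited table lists YFP-positive cells 5.47-fold, 35.0-fold and 86.9-fold higher at days 3, 7 and 14, with rates of 14.7, 0 and 0%. For Cftr the authors' deposited table lists 3.15-fold, 3.70-fold and 7.54-fold (14.7, 2.76 and 0.41%), and for Kcnn4 it lists 9.81-fold, 8.46-fold and 5.83-fold (14.7, 3.24 and 3.73%). The Kcnn4 values fitted here for YFP-positive cells were lower, 4.67-fold, 4.4-fold and 2.27-fold at these days (limma, adjusted p = 0.637, 0.621 and 0.859). For Sctr at day 14 the authors' deposited table lists YFP-positive cells 10.5-fold higher (2.67%), whereas 1.35 ± 1.80 on the log2 scale was fitted here. For Sctr in YFP-negative cells at day 3 the authors' deposited table lists a fold change of 1.03. The table covers groups of which 6 samples are not analysed here.

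Each gene was also set beside the genes whose levels followed it most closely over the 20 arrays, by Pearson's r as a description. The arrays share groups, slides and cell make-up. Cftr was followed by Ehf, an epithelial ETS transcription factor (r = 0.955), St14, the membrane protease matriptase (0.955), and Macc1 (0.949). For Slc5a1 they were the desmosome cadherin Dsg2 (0.945), Wwc1, also called Kibra (0.940), and the claudin Cldn6 (0.939). For Gabrp they were F2rl1, the protease-activated receptor PAR2 (0.928), the tubulin Tubb2b (0.924) and the adaptor Grb7 (0.923). Kcnn4 was followed by Sqle, an enzyme of sterol synthesis (0.893), the adhesion molecule Alcam (0.891) and Amd1, an enzyme of polyamine synthesis (0.879). Car2 levels were followed by Smarcb1, a chromatin remodelling subunit (0.849), and the lipin Lpin3 (0.838). Sctr was followed by Krtcap3 (0.840), Ccdc64b (0.833) and the Wnt coreceptor Lrp6 (0.832). The steadier genes had lower values, with Rttn (0.793), Psd3 (0.784) and the selenoprotein gene Sepp1 (0.777) for Aqp1 and with Comtd1 (0.763), Pex26 (0.747) and Nubp2 (0.729) for Slc4a2.

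**Figure D3:**
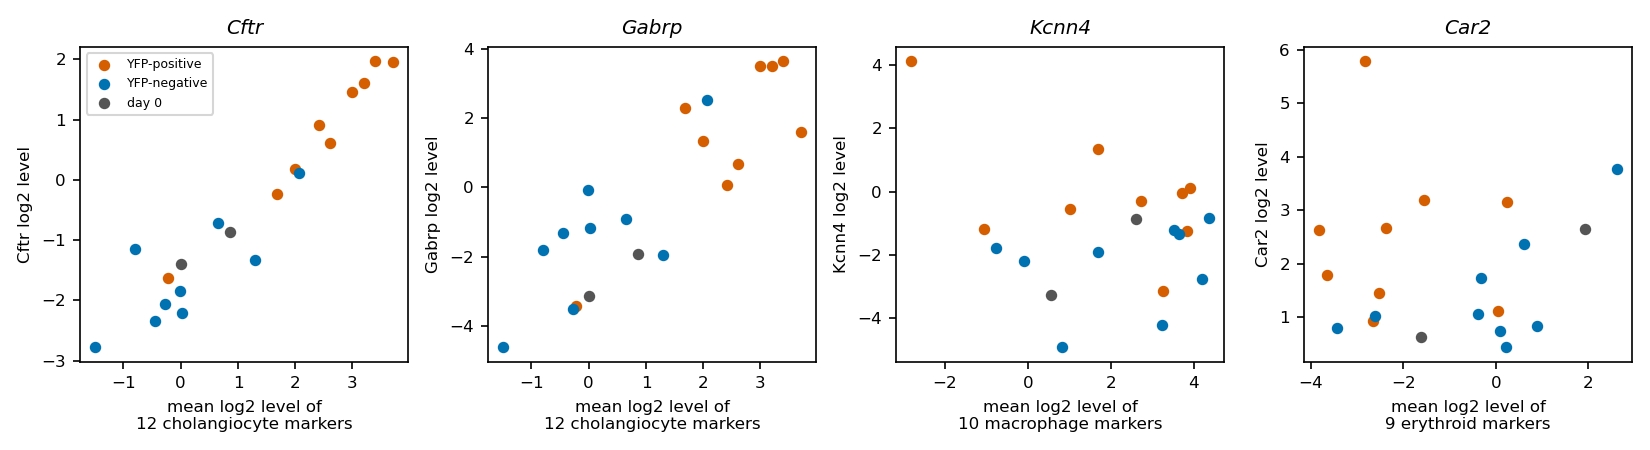
Level of Cftr and Gabrp on each array against the mean level of 12 cholangiocyte markers, of Kcnn4 against 10 macrophage markers and of Car2 against 9 erythroid markers (all log2), with YFP-positive arrays in orange, YFP-negative arrays in blue and day 0 in grey. YFP-positive arrays rich in cholangiocyte markers have high Cftr. Among YFP-negative arrays the richest, at 2.06, has the highest Cftr, while the next, at 1.30, has Cftr at -1.33. The array with Kcnn4 at 4.12 has the lowest macrophage level. Car2 is high both on the array with the highest mean erythroid level (3.77) and on 1 with a low mean (5.79).

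Of 40 other genes of bile duct secretion, none passed over the mean of days with limma. In YFP-positive cells 32 had a higher and 8 a lower level, with a median difference of 0.82, and 17 were higher and 1 lower at an unadjusted p under 0.05, beside a median of 0.06 over all genes and 14.2% of all genes higher at that p. The 3 largest differences were those of Kcnma1, a large-conductance potassium channel (2.72 ± 1.22, adjusted p = 0.214), Kcne3, a potassium channel subunit (2.35 ± 0.61, adjusted p = 0.0703), and P2ry2, a receptor for ATP in bile (2.14 ± 0.67, adjusted p = 0.104). The lowest were those of the aquaporin Aqp8 (-1.07 ± 0.57, adjusted p = 0.295), the anion exchanger Slc26a6 (-0.62 ± 0.24, adjusted p = 0.160) and Slc51b, a subunit of the basolateral bile acid transporter that the array names Ostb (-0.57 ± 0.52, adjusted p = 0.544). Of the 40 genes, 29 were well above background on every array, while Kcnma1 was not on 4 of 20 arrays. The lowest adjusted p of the list, 0.0532, was that of the chloride channel Clcn2 (1.31 ± 0.29), named after its value was seen. Nor did any of the 40 pass in the 12 other comparisons, where the lowest adjusted p was 0.0716, for YFP-positive cells at day 14 against day 0.

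**Figure D4:**
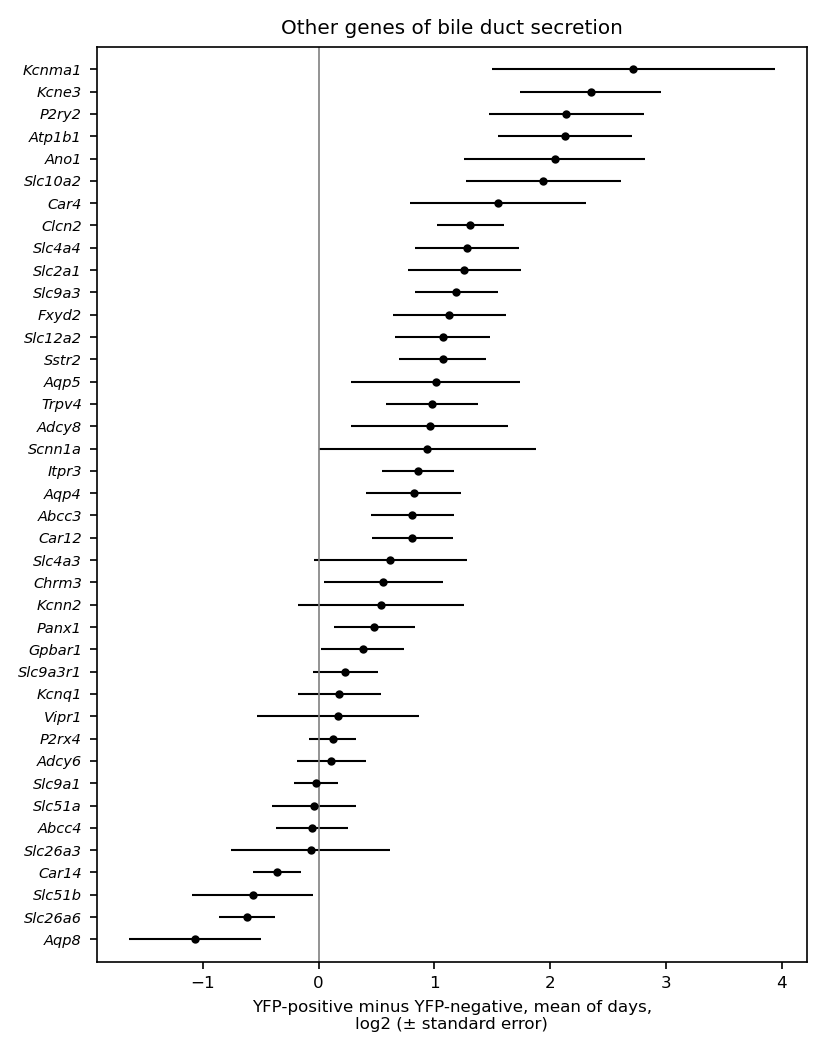
Difference between YFP-positive and YFP-negative cells over the mean of days (log2, with standard errors) for 40 other genes of bile duct secretion, in order of size. Of these, 32 lie to the right of 0, from Kcnma1 at 2.72 downward, and Aqp8 at -1.07 lies furthest to the left. The Kcnma1 signal was not well above background on 4 of 20 arrays.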

How the data were processed

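Of 26 samples, the 20 with a scanner file were used and 6 are not analysed here. Per the labels' protocols, RNA from Trizol and RNeasy preparation was amplified (NuGEN WT-Ovation Pico) and Cy3-labelled. The submitters' processing notes name Feature Extraction 9.53 and the file headers 10.5.1.1. Per the file headers, the processed signal is an intensity after background subtraction and detrending within each array. A further table that the authors deposited holds signed linear fold changes and false discovery rates, treated as scores of unstated method, and detection calls. It was used for comparison.

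Control and outlier spots were left out (43379 non-control spots, 41174 probes), spots of a probe were averaged, and the 75th percentile of the array was subtracted from the log2 signal. The filter kept the 39591 probes that at least 2 arrays measured well above background, and the brightest probe on average stood for its gene (26647 genes). The 7 groups, taken from the labels, entered 1 linear model (limma 3.58.1, R 4.3.3, statmod 1.5.0), tested two-sided with Benjamini-Hochberg adjustment over all genes and a threshold of 0.05, in 13 comparisons. The residual degrees of freedom were 13, and 277 genes had a missing value. The fit was tested on simulated data of this design, with noise independent between arrays and no slide effect. Over the mean of days it called 46% of added differences of 2 log2 units and 91% of those of 4. The slide was read from the barcode of each array. Over all pairs, same-numbered arrays did not deviate together (median r = 0.005 over 43 pairs, 8 of them over 0.1). Most of these pairs join different days or day 0. For both fractions of the same day, same-numbered arrays ran from r = -0.239 (day 14, number 2) to 0.39 (day 7, number 1). The check therefore cannot tell whether replicate numbers pair the fractions of a day, and they were not taken to pair samples. The alternatives were 12 other settings and the omission of each of the 20 arrays. The 8 genes, the gene lists and the naming rule were chosen with earlier results of these data known. Named were all 8 genes, and in a comparison those past the threshold, without overlap or with the highest or lowest difference. Of the 40 secretion genes, those past the threshold and the 3 highest and 3 lowest differences were named. For each gene the 3 closest genes by correlation were named. A further gene of the secretion list and of these closest genes is not reported here.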

Additional observations from a re-analysis of the deposited data

How the results depend on the processing

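Over all comparisons, 1430 of 1504 recomputed values of single genes kept their direction and side of the threshold, 36 lost and 4 gained a call, and 34 changed direction. Only Cftr and Gabrp over the mean of days had a call to lose, and they kept it in 15 and 13 of 32 fits. Counts of genes past the threshold stayed within 1.5 times in 394 of 416 cases. In every comparison but that over the mean of days this count was 0 as reported, so most of these cases had no call to lose. Over the mean of days 2 of the 8 passed, and 0 did with normexp, with a fixed slide block or with the replicate block; leaving out arrays in turn gave 0 to 4. With the replicate block the Cftr difference was 2.46 and that of Gabrp 3.35 (adjusted p = 0.0970 and 0.0983). Against day 0, Gabrp passed in YFP-positive cells at day 7 with array weights, which made 1 call, and at day 14 without 1 array, so that leaving out arrays gave 0 to 1. The cause of these changes was not tested.

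None of the differences that changed direction had passed the test. Of 47 differences of named genes, 24 moved by over 1.5 times under at least 1 other setting, 14 of them with a fixed slide block and 9 with normexp. Over the mean of days Aqp1 was -0.08 with normexp, -0.01 with the median of the array, -0.31 and -0.03 with the slide as a fixed and as a random block, -0.03 with the replicate block and -0.07 to 0.04 when arrays were left out. Its difference between fractions was 0.00 with quantile normalization and 0.04 with array weights at day 3 (-0.12 to 0.06 without single arrays). At day 7 it was -0.07 with normexp, -0.02 with array weights and -0.13 with the slide fixed (-0.14 to 0.18 without single arrays), and at day 14 it was 0.13 with quantile normalization. Between day 14 and day 3 in YFP-positive cells it was 0.08 with quantile normalization. Against day 0, Gabrp in YFP-negative cells at day 7 was -0.33 with the slide fixed, Kcnn4 at day 3 was 0.10 with the median of the array and -1.39 to 1.01 without single arrays, and Sctr was 0.51 with normexp at day 3 and 0.03 with quantile normalization at day 14. Without single arrays the difference of day effects for Cftr ran from -0.33 to 1.1, and that of day 14 against day 3 for Kcnn4 from -2.14 to 0.28 in YFP-positive and from -1.61 to 0.39 in YFP-negative cells. Normexp moved the median of all genes between fractions at day 3 to -0.42, against 0.15 as reported.

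Over the mean of days 171 of all genes passed, 57 of them higher. This count was 43 (7 higher) with normexp, 1125 (813) with quantile normalization, 360 (171) with the median of the array, 2 (0) with the slide fixed and 42 (5) with the replicate block. Sctr, dim on 9 of 20 arrays, is the gene whose values the signal over background limits most.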

Other observations

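Of 10 stellate cell and myofibroblast markers, 9 were lower in YFP-positive than in YFP-negative cells over the mean of days and 5 passed the test with limma, where 0.642% of all genes passed in either direction: Tagln, a contractile protein gene (-2.24 ± 0.41, adjusted p = 0.0315), Lrat, the enzyme that stores retinol as esters (-2.59 ± 0.42, adjusted p = 0.0234), Reln (-3.34 ± 0.67, adjusted p = 0.0362), the matrix gene Lum (-4.01 ± 0.83, adjusted p = 0.0392) and the collagen gene Col1a1 (-4.95 ± 0.99, adjusted p = 0.0362). The median of the list was -3.23, against 0.06 for all genes. Col1a1 was not well above background on 2 YFP-positive arrays, array 4 of day 3 and array 1 of day 14. Its fitted difference takes these dim signals at face value. None of 10 endothelial, 10 macrophage, 10 lymphocyte, 9 hepatocyte and 9 erythroid markers passed, with 2, 0, 2, 2 and 4 of them at an unadjusted p under 0.05, where 21.4% of all genes were.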
